A study of Mus musculus with 6 samples.

Results

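Osteopontin, the secreted phosphoprotein encoded by Spp1, and the genes of its cell surface receptors were followed in arthritic synovial fibroblasts (SFs) given the antipsychotic drug amisulpride. The members are 9 of the 49548 genes listed, namely Spp1, the hyaluronan receptor gene Cd44 and 7 integrin subunit genes (Itgav, Itga4, Itga5, Itga9, Itgb1, Itgb3 and Itgb5), each matched by symbol to 1 gene. They were chosen by name with their values in the same comparison already known. Their values, and any threshold they pass, are therefore a description, and no p-value is given for them. Of the 9, 8 passed the filter on low values (at least 10 normalised counts in at least 3 of the 6 libraries), and Itga4 did not.

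SFs, the connective tissue cells of the joint lining, came from the ankles of 8-week-old hTNFtg mice, which carry a human TNF transgene and develop an inflammatory arthritis, on a CBA and C57BL/6J background. Cells positive for the leukocyte marker CD45 were removed with antibody-coated beads at passage 1. The 3 untreated and the 3 amisulpride libraries (500 μM for 48 hours) therefore share the transgene, the culture and the depletion. The labels give no treatment for the controls where the methods speak of vehicle, and the drug was dissolved in DMSO. The methods call the libraries biological replicates without saying whether each came from its own mouse, so the spread between them may be partly technical.

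Osteopontin is a matrix and bone protein that also acts as a cytokine. It is made by macrophages, osteoclasts, osteoblasts and activated fibroblasts, and it is abundant in inflamed joints. Its RGD motif is bound by the integrins αvβ3, αvβ5, αvβ1 and α5β1, and the neighbouring SVVYGLR motif (SLAYGLR in the mouse), which thrombin cleavage exposes, is bound by α9β1 and α4β1. An integrin is a pair of an α and a β chain, so the subunit genes measured here give chains and not assembled receptors. CD44 is the main receptor of hyaluronan, and osteopontin is one of its further ligands.

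The stretch of Spp1 that encodes these binding motifs is shown because it ties the ligand to the integrin subunits described below. It lies in exon 6 of the 7 exons of transcript Spp1-201, at chr5:104439481-104439510 (mm10, plus strand, GENCODE M21). The capitals mark the RGD codons, of which the first is codon 144 of 294, and the lower case letters encode the SLAYGLR motif. The same 30 bases were found in all 4 Spp1 transcripts with a full reading frame.
Spp1 integrin-binding stretch: CGAGGTGATagcttggcttatggactgagg

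The 250 bases before the upstream of the 2 RefSeq start sites of Spp1 (GRCm38.p6, chr5:104434861-104435110, plus strand) are shown because Spp1 had the largest difference of the members tested and because genes of factors linked to this promoter are given further on. RefSeq held a promoter for 8 of the 9 members. Capitals mark, in order, an ETS match on the minus strand (CTTCCT), a RUNX match (AACCACA), an ETS match on the plus strand (AGGAAG) and a CCAAT box on the minus strand (ATTGG).
Spp1 promoter: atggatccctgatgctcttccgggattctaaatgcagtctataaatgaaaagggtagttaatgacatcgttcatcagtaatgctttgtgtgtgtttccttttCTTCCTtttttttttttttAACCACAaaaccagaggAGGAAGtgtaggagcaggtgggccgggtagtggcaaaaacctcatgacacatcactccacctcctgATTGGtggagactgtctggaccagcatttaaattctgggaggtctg

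Motifs were searched on both strands, and none of those marked overlaps another. The RUNX letters AACCACA lay 129 to 123 bases before the start and were held by 4.40% of 32851 promoters of the same length. The ETS letters AGGAAG lay at 148 to 143 and 112 to 107 bases and were held by 29.5% of promoters. The letters CCAAT lay at 46 to 42 bases and were held by 33.9%. An E-box (CANNTG, 98 to 93 bases) and the letters TATAAA (211 to 206 bases) were also found, and are held by 66.2% and 12.4% of promoters. The AP-1 letters TGANTCA, found in 6.75% of promoters, were not in this window. A match describes letters only and is not a bound site.

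The level of each gene is given as a normalised count, the authors' read count after their normalisation. The kit primes from the 3′ end, so that a transcript yields reads near its end whatever its length. In untreated SFs, Spp1 had the highest mean of the members, followed by Itgb1, Cd44, Itgb5, Itgav, Itga5, Itgb3, Itga9 and Itga4. Itgb1 overlapped Cd44 and Itga5 overlapped Itgb3 in single libraries, whereas the other neighbours in that order did not overlap. With amisulpride, Itgb1 had the highest mean, Cd44 came next and then Spp1, whose values overlapped those of Cd44, and the remaining order was the same. There Itga5 overlapped Itgb3, and Itgb3 overlapped Itga9. Spp1 ranked 95 in untreated SFs and 632 with amisulpride among 21960 protein-coding genes ordered by mean normalised count.

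Per kilobase of exon, Spp1 was also highest in untreated SFs, at 2607 normalised counts per kilobase against 487 for Itgb1 and 208 for Cd44. With amisulpride, Itgb1 stood at 707, Spp1 at 605, Itgb5 at 183 and Cd44 at 170 normalised counts per kilobase. Itga4 was lowest on this scale too, at 0.692 in untreated SFs and 0.286 with amisulpride. Cd44 with amisulpride lies above Spp1 and Itgb5 in plain counts and below both per kilobase. With a 3′ kit, division by length lowers long transcripts, so these values are given beside the plain counts and not in their place.

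**Figure D1:**
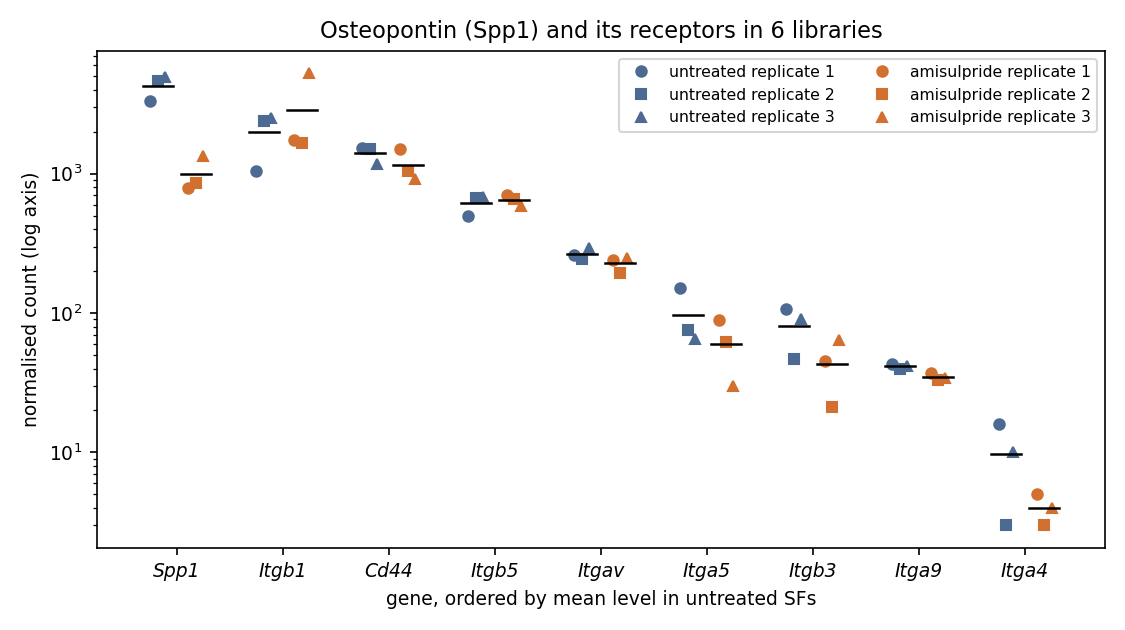
Normalised count (log axis) of the 9 member genes in each of the 6 libraries, blue for untreated and orange for amisulpride, with marker shapes for the replicate number and a bar for the mean of 3 libraries. The 3 Spp1 values with amisulpride (791 to 1339) lie below the 3 untreated values (3349 to 4912), whereas the groups overlap for Itgb1, Cd44, Itgb5, Itgav, Itga5, Itgb3 and Itga4.

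Spp1 (ENSMUSG00000029304, chr5:104435118-104441050, plus strand, mm10) was lower with amisulpride. Its normalised counts were 3349, 4630 and 4912 in the untreated replicates 1 to 3 and 791, 862 and 1339 in the amisulpride replicates 1 to 3. Every amisulpride value lay below every untreated value. The means were 4297 ± 833 and 997 ± 298 (SD, n = 3 each), a 4.31-fold difference. The difference on the log2(normalised count + 1) scale was -2.13 ± 0.28 (SE), and between libraries of the same replicate number Spp1 was 4.23-, 5.37- and 3.67-fold lower. Leaving out each library in turn gave -2.36 to -1.98. In bulk RNA, fewer cells of a type that makes Spp1 and less Spp1 RNA per cell cannot be told apart.

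Since osteoclasts and macrophages also make osteopontin, the markers of other cells are given beside Spp1. The summed normalised counts of 13 fibroblast markers (led by Col1a1, Col1a2 and Vim) were 45221 to 60240 in untreated SFs and 52114 to 91864 with amisulpride. Of these 13, all tested, 8 had higher and 5 had lower estimates (median log2 difference 0.21). Prg4, a lower one named after its values were seen, had 915, 859 and 733 against 426, 304 and 653, which do not overlap. The sums of 15 macrophage markers (led by Lyz2, Laptm5 and Cd68) were 2858 to 5585 and 2812 to 5197, so RNA of macrophage genes was present in both groups although CD45+ cells had been depleted. Lyz2, the most abundant of them, had 3046, 1733 and 2188 normalised counts in untreated SFs and 3287, 1879 and 1394 with amisulpride. Ptprc, the gene of CD45 itself, had 38, 12 and 18 against 23, 5 and 5, which overlap (log2 difference -1.16 ± 0.66, SE). It passed the filter only through its untreated values and was named after its values were seen. Of the 14 macrophage markers tested, 7 had higher and 7 had lower estimates (median log2 difference -0.04), and 2 were lower past the study's thresholds, which are defined with the member counts further on. They were Cd14, the endotoxin co-receptor (69 to 121 against 13 to 47), and Csf1r, the receptor of a macrophage growth factor (76 to 114 against 23 to 100). The complement genes C1qb (44, 35 and 38 against 53, 50 and 109) and C1qc (95, 34 and 44 against 127, 67 and 125) leaned the other way without passing. The complement gene C1qa, at 159, 38 and 68 against 116, 74 and 54, did not (log2 difference 0.05 ± 0.47, SE). These complement genes were named after their values were seen. Csf1r lost its call in 6 of 12 alternative analyses, among them each one without an untreated library.

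The sums of 8 osteoclast markers (led by Mmp9, Ctsk and Acp5) were 3877, 1904 and 4168 in untreated SFs and 1256, 735 and 2399 with amisulpride, which overlap. Of 6 tested, Acp5 (tartrate-resistant acid phosphatase), Mmp9 and the fusion protein gene Dcstamp were lower past the thresholds. Dcstamp (63, 12 and 24 against 3, 0 and 20) overlapped between groups and lost the call without untreated replicate 1 or amisulpride replicate 2. Dcstamp passed the filter only through its untreated values. Ctsk, the collagen-cleaving cathepsin K, was at 506 to 743 and 424 to 482 and did not pass. Ocstamp (63, 22 and 23 against 9, 3 and 149) and Atp6v0d2 (83, 21 and 38 against 32, 15 and 77) overlapped and did not pass. Both were named after their values were seen. All 6 tested had lower log2 estimates, but the mean of Ocstamp was higher with amisulpride (53.7 against 36). Calcr, the calcitonin receptor of mature osteoclasts, was at most 3 in any library. For Acp5 and Ctsk all amisulpride values lay below all untreated values, as for Spp1, whereas for Mmp9 and the osteoclast sum amisulpride replicate 3 stood above untreated replicate 2. The sums of 9 osteoblast markers were 34 to 83 and 14 to 36, among them Alpl (63, 21 and 28 against 8, 4 and 5), which passed the filter only through its untreated values. Endothelial markers (led by Tek, Emcn and Pecam1) summed to at most 15, with Cdh5 and Tie1 at 0 throughout. The part of these cell types in the Spp1 difference was not tested.

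**Figure D2:**
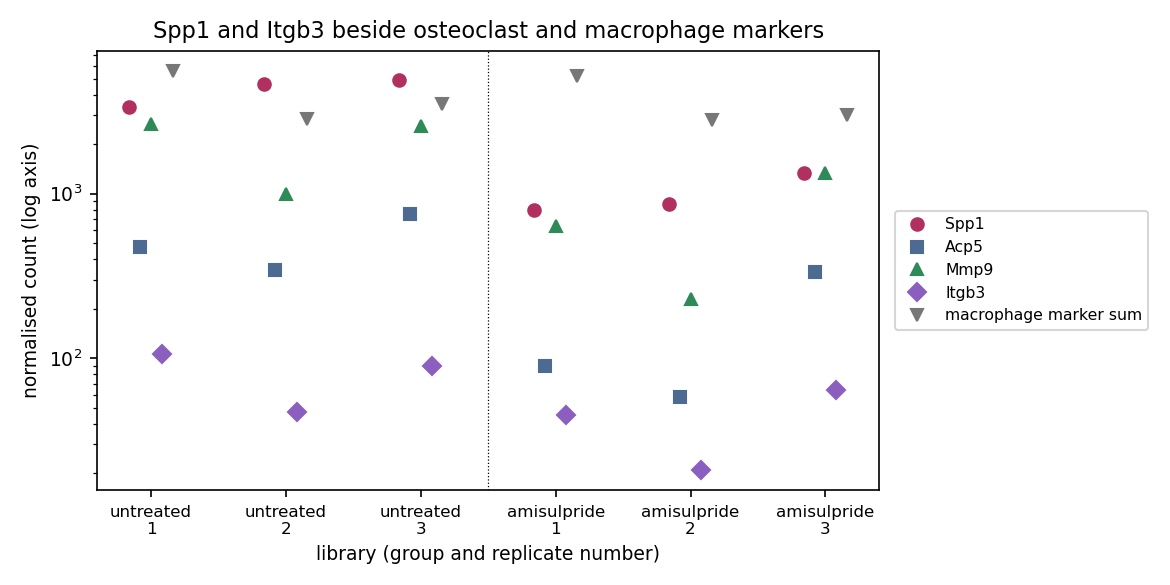
Normalised count (log axis) of Spp1, Itgb3, the osteoclast genes Acp5 and Mmp9 and the sum of 15 macrophage markers in each library, untreated left and amisulpride right of the dotted line. Itgb3 and Mmp9 are highest in untreated replicate 1 and lowest in amisulpride replicate 2, and Spp1 is highest in untreated replicate 3 and lowest in amisulpride replicate 1.

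Cd44 (ENSMUSG00000005087, chr2:102811141-102901665, minus strand) encodes the receptor of osteopontin that is not an integrin. Its normalised counts were 1538, 1517 and 1175 in untreated SFs and 1497, 1049 and 916 with amisulpride. The groups overlapped, since amisulpride replicate 1 was above untreated replicate 3. The means were 1410 ± 204 and 1154 ± 304 (SD, n = 3 each), with a log2 difference of -0.31 ± 0.26 (SE). The ratio of amisulpride to untreated was 0.973, 0.691 and 0.780 between libraries of replicate number 1, 2 and 3. The counts cover the whole gene and do not separate the standard from the variant exons of Cd44.

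Among the 4 member α chains, Itgav (ENSMUSG00000027087, chr2:83724397-83806916, plus strand), which pairs with β1, β3 and β5 to bind the RGD motif, was the most abundant. It had 261, 243 and 291 normalised counts in untreated SFs and 241, 194 and 247 with amisulpride, and the groups overlapped. The log2 difference was -0.22 ± 0.24 (SE). Itga5 (ENSMUSG00000000555, chr15:103344286-103366763, minus strand), the α chain of the fibronectin receptor, had 152, 75 and 65 normalised counts in untreated SFs and 89, 62 and 30 with amisulpride. These groups overlapped as well, and the log2 difference of -0.71 ± 0.44 (SE) ranged from -1.05 to -0.28 when 1 library was left out, the value nearest 0 being that without amisulpride replicate 3 and the farthest, which passed the study's thresholds, that without amisulpride replicate 1.

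The α chains that bind the cryptic SLAYGLR motif had the lowest means of the 9 members. Itga9 (ENSMUSG00000039115, chr9:118606690-118901003, plus strand) had 43, 40 and 42 normalised counts in untreated SFs and 37, 33 and 34 with amisulpride. The groups did not overlap, but the means of 41.7 ± 1.53 and 34.7 ± 2.08 (SD, n = 3 each) differed by a log2 value of only -0.26 ± 0.31, whose SE comes from a fit across all genes. The pseudogene Gm10157 lies within the Itga9 span on the minus strand and was counted on its own, at 130, 93 and 106 normalised counts in untreated SFs and 130, 96 and 73 with amisulpride, above Itga9 in every library. Itga4 (ENSMUSG00000027009, chr2:79255426-79333123, plus strand), best known as a leukocyte integrin chain, had 16, 3 and 10 normalised counts in untreated SFs and 5, 3 and 4 with amisulpride. At this depth its groups could not be separated, since 3 reads corresponded to 2.5 to 5.37 normalised counts in the 5 libraries where the value of 1 read could be recovered.

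Itgb1 and Itgb5 were above each of the α chains in every library. The higher of them in each library was Itgb1 (ENSMUSG00000025809, chr8:128685654-128733200, plus strand), the common partner of α4, α5, α9 and αv. Its normalised counts were 1040, 2405 and 2512 in untreated SFs and 1752, 1649 and 5256 with amisulpride. The groups overlapped and had the widest spread of the 8 members tested (SD within groups of 0.84 on the log2 scale), with means of 1986 ± 821 and 2886 ± 2053 (SD, n = 3 each). The log2 difference was 0.42 ± 0.47 (SE), and -0.12 without amisulpride replicate 3, which held the highest value. Itgb5 (ENSMUSG00000022817, chr16:33829665-33949153, plus strand) had 499, 674 and 677 normalised counts in untreated SFs and 702, 663 and 585 with amisulpride. These overlapped, with a log2 difference of 0.09 ± 0.24 (SE) that was -0.06 without untreated replicate 1.

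Itgb3 (ENSMUSG00000020689, chr11:104608000-104670476, plus strand), which with αv forms the vitronectin receptor that osteoclasts use to attach to bone, was the scarcest of the member β chains. It had 107, 47 and 90 normalised counts in untreated SFs and 45, 21 and 64 with amisulpride. The groups overlapped, since amisulpride replicate 3 was above untreated replicate 2. The means were 81.3 ± 30.9 and 43.3 ± 21.5 (SD, n = 3 each), and the log2 difference was -0.95 ± 0.44 (SE), or ± 0.32 with the replicate number as a block. In 3 of 12 alternative analyses Itgb3 would have passed the study's thresholds, at -1.30 without untreated replicate 2, -1.29 without amisulpride replicate 3 and -1.02 with libraries rescaled to equal totals. Between libraries of the same number, Itgb3 was 2.38-, 2.24- and 1.41-fold lower with amisulpride. The 6 libraries ranked in the same order for Itgb3 as for Mmp9, an observation made after the values were seen. Other osteoclast markers ranked differently, Acp5 with untreated replicate 3 highest and Ocstamp with amisulpride replicate 3 highest (149). Whether osteoclast-like cells carry the Itgb3 reads was not tested.

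Of the 8 members tested, Spp1 was the single gene past the study's thresholds (absolute log2 difference of at least 1 and an unadjusted p under 0.05), and it was lower. In all, 3.01% of the 12614 genes tested were lower and 2.69% were higher past these thresholds, and 0.285% had a Benjamini-Hochberg adjusted p under 0.05 in limma. In 2 of the 8 members, Spp1 and Itga9, every amisulpride value lay below every untreated value, and in 0 above. Over all genes tested these shares were 8.66% and 7.8%. Because the members were chosen on these values, nothing is read from these shares. Among the 7 receptor genes tested, Cd44, Itgav, Itgb3, Itga5 and Itga9 were lower with amisulpride in 3 of 3 pairs of the same replicate number, by log2 differences of -0.95 to -0.22, which SEs of 0.24 to 0.44 accompany. Of all genes tested, 17.8% were lower in 3 of 3 such pairs.

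**Figure D3:**
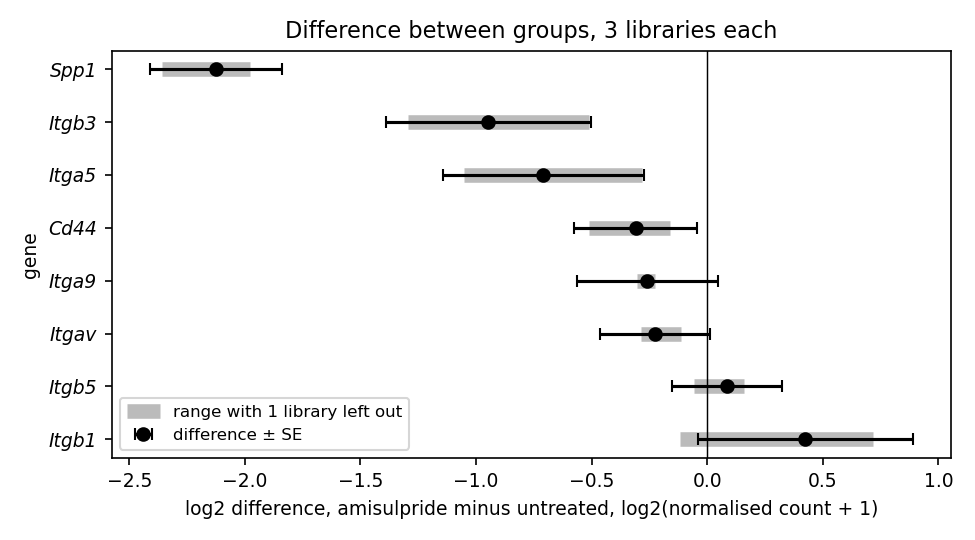
Difference between amisulpride and untreated SFs in log2(normalised count + 1) for the 8 members tested, as points with the SE of the limma fit (3 libraries a group) and a grey band for the range when 1 library is left out. Spp1 lies at -2.13 with a band from -2.36 to -1.98, and the bands of Itgb1 and Itgb5 cross 0.

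The balance of ligand to receptor RNA was also computed within each library, which removes any scaling factor that the genes of a library share. Spp1 counts per Itgb5 count were 6.71, 6.87 and 7.26 in untreated SFs and 1.13, 1.30 and 2.29 with amisulpride. For Cd44 the ratios were 2.18, 3.05 and 4.18 against 0.528, 0.822 and 1.46. Spp1 thus exceeded Cd44 in all 3 untreated libraries and in 1 of 3 with amisulpride, and neither ratio overlapped between groups. Per Itgav the means were 16.3 ± 3.16 and 4.38 ± 1.07, and per Itgb1 2.37 ± 0.739 and 0.410 ± 0.139 (SD, n = 3 each). These ratios share the Spp1 values and are not independent of its difference.

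The makeup of the receptor chains was set by the same few genes in both groups. Of the summed counts of the member β chains, Itgb1 took 63.2% to 76.9% in untreated SFs and 70.1% to 89.0% with amisulpride. Itgb5 took 20.6% to 30.3% and 9.91% to 28.4%, and Itgb3 1.5% to 6.5% and 0.9% to 1.8%. Of the α chains, Itgav took 55.3% to 71.3% and 64.8% to 78.4%, Itga5 15.9% to 32.2% and 9.52% to 23.9%, Itga9 9.11% to 11.1% and 9.95% to 11.3%, and Itga4 0.831% to 3.39% and 1.03% to 1.34%. The ranges of the groups overlapped for each of these chains. The amisulpride replicate 3 library, where the share of Itgb1 was highest and the shares of Itgb5 and Itga5 were lowest, also stood apart from the other libraries over all genes, at 73.9 on a first principal component (37.1% of the variance) that held the others at -38.2 to 10.4.

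The genes whose pattern over the 6 libraries was most like that of Spp1, by Pearson's r of log2(normalised count + 1), were Bmp2 (r = 0.989), Hexim1 (0.986), Gm7901 (0.984), Cisd2 (0.983) and Stard4 (0.981). Bmp2, a bone morphogenetic protein, had 17, 21 and 27 normalised counts in untreated SFs and 0, 1 and 2 with amisulpride. Bmp2 passed the filter only through its untreated values. Its amisulpride values lay below the worth of 3 reads there (2.69 to 5.37 normalised counts). Hexim1, an inhibitor of the elongation factor P-TEFb, had 444, 514 and 547 against 234, 194 and 274, and the sterol carrier gene Stard4 83, 85 and 96 against 20, 23 and 43. In each of the 5 genes all amisulpride values lay below all untreated values, a pattern that a high r with Spp1 over both groups largely fixes. Of the members, Itga9 (0.83) and Itgav (0.70) were most like Spp1 and Itgb5 least (-0.21). After the group means were subtracted, Itgb1 (r = 0.99) followed Spp1 and Itga5 (-0.99) ran against it, and the highest values among all genes were those of Adgrl2 (0.999), Bnip3l (0.997), Fam161a, Zcchc5 and Gm10123 (0.996 each). Each r rests on 6 libraries that differ in depth and replicate number as well as in treatment, and is a description. Subtracting the group means leaves fewer free values than libraries, so a value near 1 or -1 is reached more easily there.

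**Figure D4:**
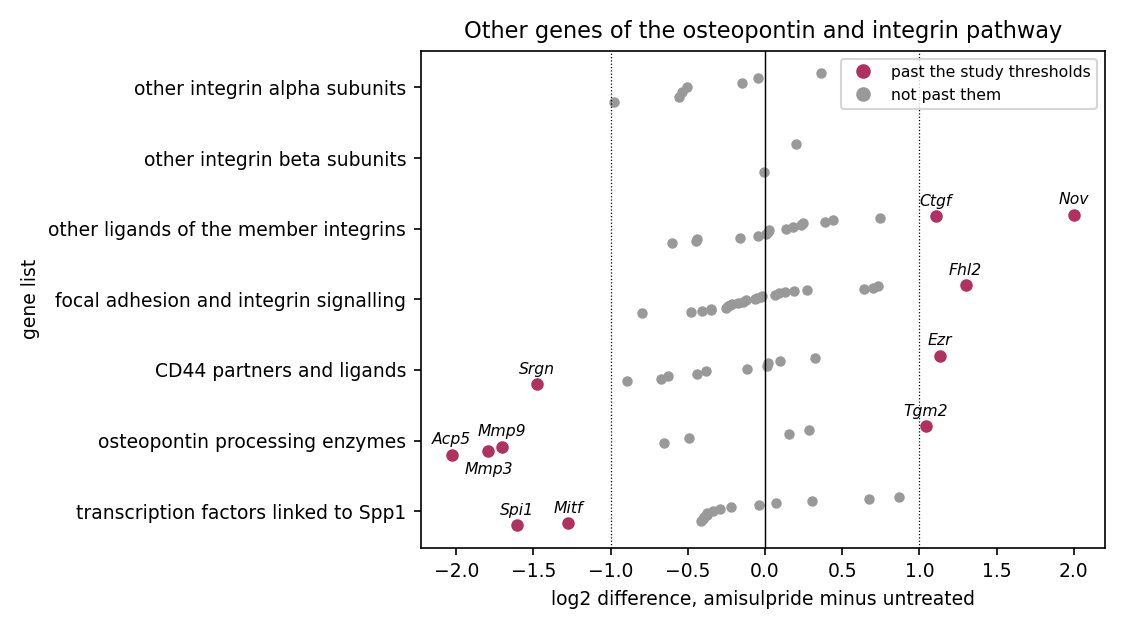
Difference between amisulpride and untreated SFs in log2(normalised count + 1) for the tested genes of 7 lists around osteopontin and its receptors, 1 point a gene, with dotted lines at -1 and 1. The 11 named genes passed the study's thresholds, 5 higher and 6 lower, and 4 of them are osteopontin processing enzymes.

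The pathway around the members was described with 8 lists of 110 genes in all, of which 86 were tested. Past the study's thresholds 5 rose and 6 fell (12.8% together, against 5.70% of all genes tested). In limma 0 of the 86 had an adjusted p under 0.05, against 36 of all 12614 genes tested. An unadjusted limma p under 0.05 was reached by 15 of the 86 and by 1373 of the 12614. With the replicate number as a block, the same 11 genes passed the thresholds, beside 834 among all genes tested. There 7 of the 11 had an adjusted p under 0.05 in limma (Acp5, Fhl2, Mmp3, Mmp9, Nov, Spi1 and Tgm2), beside 263 among all genes tested. The median log2 difference of the 86 genes was -0.09, against 0.00 for all genes tested. Because the lists were chosen with earlier results of these data known, nothing is read from these shares and counts. Of the 4 other SIBLING genes, the bone and tooth matrix family of osteopontin, none was tested. Ibsp was at 0 to 2 normalised counts, Dmp1 at 0 or 1, and Dspp and Mepe were at 0 in all 6 libraries.

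No call was made among the 7 of 14 other integrin α chains and the 2 of 5 other β chains that were tested (median log2 differences of -0.51 and 0.10). The following chains were named after their values were seen. Itga11, a collagen-binding chain of fibroblasts, had 292, 572 and 607 normalised counts in untreated SFs and 322, 312 and 327 with amisulpride, which is above Itgav in each library. Itga8, which with β1 also binds the RGD motif of osteopontin, was at 1 to 3 normalised counts, and Itgb6, the epithelial partner of αv, at 0 or 1.

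Among 17 tested of 20 other ligands of these integrins, 2 rose and 0 fell, with a median log2 difference of 0.14. Both are matricellular proteins of the CCN family. Nov (CCN3) had 147, 194 and 65 normalised counts in untreated SFs and 543, 589 and 378 with amisulpride, a log2 difference of 2.0 ± 0.38 (SE; limma adjusted p = 0.0608). Ctgf (CCN2) had 11976, 9403 and 10616 against 15297, 19468 and 40012, a log2 difference of 1.11 ± 0.38 (SE; limma adjusted p = 0.281), and it lost the call without amisulpride replicate 3. The groups did not overlap for either gene, in the direction opposite to Spp1. Nov passed in all 12 alternative analyses.

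Of the enzymes that cleave, dephosphorylate or crosslink osteopontin, 8 of 11 were tested, 3 fell and 1 rose, with a median log2 difference of -0.57. Acp5, which removes phosphates from osteopontin, had 473, 343 and 752 normalised counts in untreated SFs and 90, 58 and 336 with amisulpride (log2 difference -2.03 ± 0.54, limma adjusted p = 0.165). Mmp3 (stromelysin), which cleaves osteopontin near its RGD motif, had 4166, 5120 and 2530 against 666, 1118 and 1745 (-1.79 ± 0.37, limma adjusted p = 0.0764). Neither overlapped between groups, and both passed in all 12 alternative analyses.

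Mmp9 had 2658, 992 and 2581 normalised counts in untreated SFs and 638, 230 and 1337 with amisulpride (log2 difference -1.70 ± 0.56, limma adjusted p = 0.265), which overlap, and lost the call without untreated replicate 1 or amisulpride replicate 2. Tgm2, the transglutaminase that crosslinks osteopontin, was the gene that rose, from 128, 258 and 185 to 325, 493 and 335 (1.04 ± 0.30, limma adjusted p = 0.209). It lost the call without untreated replicate 1 or amisulpride replicate 2 and when libraries were rescaled to equal totals. Acp5 and Mmp9 are also on the osteoclast list above.

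On the receptor side, 1 of 25 tested focal adhesion and integrin signalling genes rose and 0 fell, with a median log2 difference of -0.06. The gene was Fhl2, an adaptor of integrin tails, at 205, 231 and 331 normalised counts in untreated SFs and 435, 563 and 961 with amisulpride (1.30 ± 0.32, limma adjusted p = 0.135), and it lost the call without amisulpride replicate 3. Of 12 tested CD44 partners and ligands (median -0.25), Ezr (ezrin), which links CD44 to actin, rose from 42, 30 and 23 to 94, 52 and 66 (1.13 ± 0.35, limma adjusted p = 0.241), and Srgn, a blood cell proteoglycan that binds CD44, fell from 38, 61 and 11 to 7, 20 and 7 (-1.48 ± 0.64, limma adjusted p = 0.431). The Ezr groups did not overlap and the Srgn groups did. Ezr lost the call without untreated replicate 3 or amisulpride replicate 1. Srgn lost it without untreated replicate 1 or 2 or amisulpride replicate 1 or 3, and had passed the filter only through its untreated values.

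Among 15 transcription factor genes linked to Spp1, all tested, 0 rose and 2 fell, with a median log2 difference of -0.34. Spi1, which encodes the ETS factor PU.1 of myeloid cells, had 180, 99 and 116 normalised counts in untreated SFs and 91, 13 and 57 with amisulpride (-1.61 ± 0.57, limma adjusted p = 0.306), and lost the call without untreated replicate 1 or amisulpride replicate 2. Mitf, a factor of osteoclasts and pigment cells, had 24, 17 and 21 against 9, 13 and 4 (-1.27 ± 0.53, limma adjusted p = 0.404). Mitf passed the filter only through its untreated values. Its call was lost in 5 of the 11 alternatives that tested it, among them each one without an untreated library. Of the genes on this list, Runx2 and Ets1 encode a RUNX and an ETS factor and did not pass. Runx2 had 49, 55 and 78 against 78, 67 and 77, and Ets1 83, 96 and 154 against 86, 84 and 77, both named after their values were seen.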

How the data were processed

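Libraries were made with the QuantSeq 3′ kit and sequenced on an Ion Proton. The authors mapped reads to mm10 with TopHat2 and the rest with Bowtie2, and counted them per gene with GenomicRanges. Through metaseqr, the counts were normalised, by a method the paper does not name, and tested with DESeq. Versions are not given in the sources used here. The deposited values used are a score, namely counts that the authors normalised and rounded to whole numbers. Another 12 columns of per-library values (on a log2 scale or per gene length) and the authors' fold changes and p-values were not used. Since normalised values are not counts, log2(normalised count + 1) was fitted with limma 3.58.1 (R 4.3.3; eBayes with trend, two-sided) over the 12614 genes with at least 10 in at least 3 of 6 libraries. The study's thresholds are an absolute log2 difference of at least 1 and an unadjusted p under 0.05, and Benjamini-Hochberg adjustment ran over all genes tested. The script was tested on simulated data.

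Normalised totals were 3832980 to 4504242 per library. In 5 libraries, steps between low values gave the worth of 1 read as 0.834 to 1.79 normalised counts, and the value of 1 read in untreated replicate 1 was not recovered. Deviations from the group means correlated at 0.201 to 0.240 between libraries of the same replicate number and at -0.149 to -0.0777 between others, across 12614 genes. Deviations within a group cancel out, so the negative values partly follow from the positive ones. Libraries of the same number thus deviated together, but neither the labels nor the methods say what the numbers stand for. A fit with the replicate number as a block was made beside the one without, which follows the study.

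The members and lists were chosen with earlier results of these data known. Named were all members, the other SIBLING genes, up to 3 genes a list and direction past the thresholds, the 3 most abundant genes of each marker list (of the osteoblast list 1 gene, the rest not being reported here), and the 5 genes most like Spp1 by either correlation. Exon lengths came from GENCODE M21, and promoters from RefSeq. Alternatives were another pseudocount (5), no filter, a minimum of 20, rescaling to equal totals, quantile normalisation, the block, and leaving out each library.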

Additional observations from a re-analysis of the deposited data

How the results depend on the processing

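The Spp1 difference kept its direction and its call in all 12 alternatives. Itgb3 passed the thresholds in 3 of them, Itga5 in 1, and Cd44, Itgav, Itga9, Itgb1 and Itgb5 in none. As the members were chosen on the values of these same 6 libraries, the calls are a description and no support for a difference. Without 1 library at a time, the member log2 differences ranged from -0.51 to -0.16 for Cd44, -0.29 to -0.11 for Itgav, -1.30 to -0.51 for Itgb3, -0.31 to -0.23 for Itga9, -0.12 to 0.72 for Itgb1 and -0.06 to 0.16 for Itgb5. Rescaling to equal totals moved Itga9 to -0.33, by more than its spread between replicates, and moved the median of all genes from 0.00 to -0.07 and the share of higher calls from 47.1% to 38.8%. Without the filter on low values, 1313 genes of 22775 passed the study's thresholds against 719, and 621 of them were higher and 692 lower. Leaving out 1 library gave 563 to 1000 genes, 309 to 485 higher and 254 to 515 lower, and 8 to 11 context genes, 4 or 5 higher and 3 to 6 lower. Genes with an adjusted p under 0.05 in limma numbered 36, and 57 with a pseudocount of 5 or without the filter, 47 with equal totals and 66 with quantile normalisation. The replicate block gave 263 such genes and changed no call of a member at the study's thresholds. Without 1 library the number was 0 to 120, namely 0 without untreated replicate 2 or 3 (where 1083 and 911 genes had an unadjusted p under 0.05), and 1 without untreated replicate 1. Among the treated libraries, the absence of replicate 1 gave 17 genes, that of replicate 2 gave 6 and that of replicate 3 gave 120. Why these counts move was not tested. For any 1 gene, permuting 3 against 3 libraries exactly allows no p below 0.10.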
